A study of Mus musculus with 27 samples.

Results

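The 10 genes described here are made by fibroblasts and other connective-tissue cells. They are the intermediate filament gene Vim, the fibrillar collagen genes Col1a1, Col1a2 and Col3a1, the matricellular protein gene Sparc, the small leucine-rich proteoglycan genes Dcn and Lum, the platelet-derived growth factor receptor genes Pdgfra and Pdgfrb, and Thy1, which encodes a surface glycoprotein. They were given as a list of names, with no threshold on their values, although earlier results of these data were known when the list was made, and all 10 were present among the 50559 genes of the count table. The questions were whether these genes varied together between cultures and whether they fell over the days of culture. RNA came from organoids, cell aggregates grown in Matrigel from thyroid glands of C57BL/6 mice aged 8 to 12 weeks, in a medium that held EGF, FGF2, the kinase inhibitor Y27632 and B27 in every group. Non-irradiated organoids were collected at days 5, 7 and 11, and organoids that received 2, 4 or 7 Gy of photons at day 5 were collected at days 7 and 11. Each of the 9 groups of day and dose held 3 libraries, 27 in all, 1 from each of the cultures named mTG11, mTG12 and mTG14 in the table. The labels numbered the mice 1 to 3 and the design text spoke of 4 mice, and nothing linked a mouse number to a culture name. In fits without a culture term, p-values measured the spread between these cultures. In fits with a culture term, they measured the spread left after culture and group. In the test between cultures, the libraries of a culture, from different days and doses, acted as its replicates.

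Fibroblasts build the connective tissue that surrounds epithelial follicles. Type I collagen is a fibre made of the products of Col1a1 and Col1a2, and type III collagen, from Col3a1, joins the same fibres. Sparc binds collagen as it is laid down, decorin and lumican sit on the fibres and control their width, and the platelet-derived growth factor receptors carry signals for growth and migration into mesenchymal cells. Vimentin is the main intermediate filament of mesenchymal cells, and it is also found in epithelial cells that change toward a mesenchymal state. In a bulk library, fewer cells of a type and less RNA per cell cannot be told apart.

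Library totals ranged from 2528866 to 5723150 estimated counts, and 3 counts, taken as the limit of detection, stood for 0.524 to 1.19 CPM (counts scaled to a library of 1000000) depending on the library. This limit covers counting error only. The summed level of 8 epithelial markers ranged from 5269 to 14908 CPM, beside 140 to 621 CPM for the 10 members. Such sums do not measure the share of a cell type. Of 8 thyroid markers, Foxe1 and Nkx2-1 held 3105 and 1327 counts over the 27 libraries, while the iodide transporter gene Slc5a5 held 6. Endothelial markers were near the limit of detection, at 0.270 to 3.80 CPM for the sum of 9 genes, and Emcn and Cldn5 had no counts in any library.

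On build GRCm39 the type I collagen genes were annotated at chr11:94827050-94843868 for Col1a1 and chr6:4504814-4541555 for Col1a2, both on the plus strand. Vim was at chr2:13578738-13587639 and Col3a1 at chr1:45350698-45395840, both on the plus strand, and Sparc was at chr11:55285317-55314067 on the minus strand. Dcn, at chr10:97315275-97358155, and Lum, at chr10:97400990-97408577, were neighbours on the plus strand. Whether reads were counted by strand is not given in the sources used here, and the spans of Vim, Col1a2, Col3a1 and Pdgfra overlapped 1, 2, 2 and 3 other annotated genes, so a few of their reads could belong to those. The libraries were made with Smart3SEQ, which reads the 3′ ends of polyadenylated transcripts. The stretches before the start sites of 4 members are shown because later paragraphs describe their levels by culture and day. Whether these members differed from each other in their changes was not tested. They are the 250 bases before the start given by RefSeq on GRCm38.p6, 5′ to 3′ along the gene, at chr2:13574061-13574310 (plus strand) for Vim, chr6:4505368-4505617 (plus) for Col1a2, chr1:45311288-45311537 (plus) for Col3a1 and chr11:55420081-55420330 (minus) for Sparc. Capitals mark a TATA box, a CCAAT box or a GC box on either strand.
Vim: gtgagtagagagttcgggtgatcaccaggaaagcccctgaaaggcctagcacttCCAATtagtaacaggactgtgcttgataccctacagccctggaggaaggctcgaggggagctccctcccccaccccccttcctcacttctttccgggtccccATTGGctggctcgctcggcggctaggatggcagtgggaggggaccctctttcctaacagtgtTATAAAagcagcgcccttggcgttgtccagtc
Col1a2: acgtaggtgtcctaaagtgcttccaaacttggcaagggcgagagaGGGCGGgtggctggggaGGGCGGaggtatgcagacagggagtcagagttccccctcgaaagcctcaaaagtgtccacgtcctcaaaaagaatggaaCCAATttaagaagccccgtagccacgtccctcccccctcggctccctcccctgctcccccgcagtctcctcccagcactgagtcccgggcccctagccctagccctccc
Col3a1: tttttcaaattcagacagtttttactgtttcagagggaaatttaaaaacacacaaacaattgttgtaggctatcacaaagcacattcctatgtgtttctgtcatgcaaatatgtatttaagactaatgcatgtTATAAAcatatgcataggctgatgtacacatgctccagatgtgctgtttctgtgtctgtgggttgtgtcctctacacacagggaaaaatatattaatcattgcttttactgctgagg
Sparc: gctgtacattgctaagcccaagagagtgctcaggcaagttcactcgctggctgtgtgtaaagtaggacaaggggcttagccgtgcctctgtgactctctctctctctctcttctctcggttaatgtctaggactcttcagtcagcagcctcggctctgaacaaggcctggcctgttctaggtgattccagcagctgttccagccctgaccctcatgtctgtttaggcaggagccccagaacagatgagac

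The TATA box letters, TATAAA, stood 32 to 27 bases before the start of Vim and 117 to 112 bases before that of Col3a1. The CCAAT box letters, CCAAT, stood 109 to 105 bases before the start of Col1a2 and, in Vim, 196 to 192 bases before the start on the given strand and 94 to 90 bases before it on the reverse strand. Col1a2 held the GC box letters, GGGCGG, at 2 places. The Sparc window held none of the 3 motifs. Of 32851 such windows in the RefSeq table, 12.4% held the TATA box letters, 33.8% the CCAAT box letters and 32.7% the GC box letters, on either strand, so a match describes letters only. GC content was 58.4% for Vim, 62.0% for Col1a2, 35.2% for Col3a1 and 54.0% for Sparc. Of the 10 members, 5 had an entry in that table (Pdgfra was the fifth). Col1a1, Dcn, Lum, Pdgfrb and Thy1 had none.

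The 3 cultures differed in their stromal transcripts, and mTG11 held the least. Culture mTG11 held the lowest CPM of the 3 in 9 of 9 groups for Vim, Col1a1, Col1a2, Col3a1 and Dcn, which was true of 0.446% of the 22220 genes tested. It was lowest in 7 of 9 groups for Sparc, Lum, Pdgfra and Pdgfrb and in 4 of 9 for Thy1. For Pdgfra it was highest in 2 groups, and for Thy1 in 1. In a fit of all 27 libraries with the day and dose group and the culture as terms (edgeR, quasi-likelihood test, adjusted over all genes tested), 8 of the 10 members differed between cultures, against 9.42% of all genes. The 8 were Vim, Col1a1, Col1a2, Col3a1, Sparc, Dcn, Lum and Pdgfrb. Pdgfra (adjusted p = 0.533) and Thy1 (adjusted p = 0.327) did not pass, and both were near the limit of detection. By DESeq2 7 members and 1684 genes passed.

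Vim had a median of 8.74 CPM over the 9 groups in mTG11, 24.7 CPM in mTG12 and 40.2 CPM in mTG14. It was highest in mTG14 in 6 groups and in mTG12 in 3. The fitted log2 difference from mTG11 was 1.19 ± 0.19 (SE) for mTG12 and 1.68 ± 0.18 for mTG14, with an adjusted p of 6.3e-07 by edgeR for any difference between cultures.

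The collagen genes were also lowest in mTG11. Col1a1 had medians of 5.82, 33.4 and 20.8 CPM in mTG11, mTG12 and mTG14, and it was highest in mTG12 in 8 of 9 groups. Its log2 difference from mTG11 was 2.17 ± 0.19 for mTG12 and 1.40 ± 0.20 for mTG14 (adjusted p = 1.1e-08 by edgeR). Col1a2, whose protein joins that of Col1a1 in the same triple helix, had medians of 8.70, 29.3 and 30.3 CPM, and differences of 2.01 ± 0.18 and 1.57 ± 0.19. Col3a1 was lower in counts, with medians of 1.57, 5.70 and 5.89 CPM and differences of 2.25 ± 0.29 and 1.88 ± 0.30.

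Decorin transcripts were ordered the other way between mTG12 and mTG14. Dcn had medians of 3.16, 13.7 and 26.8 CPM and was highest in mTG14 in 8 of 9 groups, and its log2 difference from mTG11 was 1.82 ± 0.21 for mTG12 and 2.66 ± 0.20 for mTG14 (adjusted p = 9.7e-10 by edgeR). When mTG14 was set against mTG12, Dcn was higher by 0.84 ± 0.16 (adjusted p = 0.0014) and Col1a1 was lower, at -0.77 ± 0.16 (adjusted p = 0.0035), and these were the 2 members that passed. Lum had medians of 0.874, 2.92 and 6.56 CPM, with log2 differences from mTG11 of 1.52 ± 0.38 for mTG12 and 2.27 ± 0.35 for mTG14 (adjusted p = 0.00016 by edgeR). Sparc differed least among the called members, by 0.32 ± 0.08 for mTG12 and 0.17 ± 0.08 for mTG14 (adjusted p = 0.028). The receptor gene Pdgfrb differed by 1.39 ± 0.36 and 0.68 ± 0.40 (adjusted p = 0.034), from 95 counts in all 27 libraries.

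**Figure D1:**
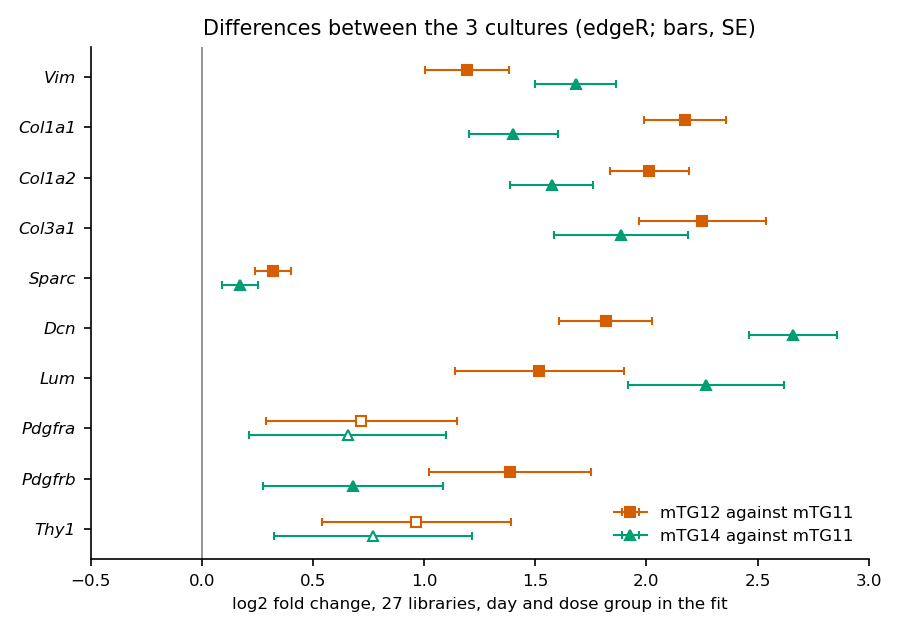
Fitted log2 differences of mTG12 (squares) and mTG14 (triangles) from mTG11 for each member, over 27 libraries with the group in the fit, with SE bars. Filled symbols mark members with an adjusted p under 0.05 for any difference between cultures. Col1a1 is further right in mTG12 (2.17) and Dcn in mTG14 (2.66), and Sparc lies close to 0.

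Markers of other cell types also differed between the cultures. Of all genes tested 9.42% differed, a share that applies to each count of this paragraph. Of 8 mural cell markers tested 7 passed, and their summed level had a median of 49.5 CPM in mTG11 (range 22.0 to 90.1), 74.9 CPM in mTG12 (38.3 to 138) and 112 CPM in mTG14 (57.9 to 295). Of 6 skeletal muscle markers 4 passed, with medians of 23.0, 60.9 and 50.4 CPM and ranges of 5.71 to 76.0, 12.2 to 225 and 10.7 to 143. Of 8 epithelial markers 6 passed, with medians of 10843, 12048 and 10570 CPM. None of the 4 endothelial markers tested passed. The part of these cells in the differences between cultures was not tested. A wider list of 42 stromal matrix genes had 23 of 41 tested genes that differed, a list of 21 ligand, receptor and target genes of TGF-beta, platelet-derived growth factor and collagen signals had 7 of 21, a list of 14 basement membrane genes had 10 of 14, and a list of 8 transcription factor and cadherin genes tied to EMT (epithelial-to-mesenchymal transition) had 3 of 8.

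The 3 collagen genes varied with each other and with Vim from library to library. Across the 27 libraries, the mean Z-score of Col1a1, Col1a2 and Col3a1 on the log2(CPM + 1) scale was set against the other members. Its Pearson r was 0.89 with Vim, 0.81 with Lum, 0.66 with Sparc, 0.61 with Dcn and 0.61 with Pdgfrb. It was lower with Thy1 (0.41) and Pdgfra (0.25), which were near the limit of detection. Sparc and Dcn had an r of 0.11 with each other. The libraries share cultures, days and doses, so these values describe the libraries. After each value was set relative to the mean of its group, r with the collagens was 0.84 for Vim, 0.80 for Dcn and 0.74 for Sparc. It was 0.73 for Lum, 0.66 for Pdgfrb, 0.48 for Thy1 and 0.41 for Pdgfra. Vim was then closer to Dcn (r = 0.91) than to the collagens. The ratio of Col1a1 to Col1a2 counts had a median of 0.932 and stayed between 0.851 and 1.14 in all 9 libraries of mTG12, and it ranged from 0.527 to 0.993 in mTG14 and from 0.455 to 2.33 in mTG11, where the counts were lowest.

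**Figure D2:**
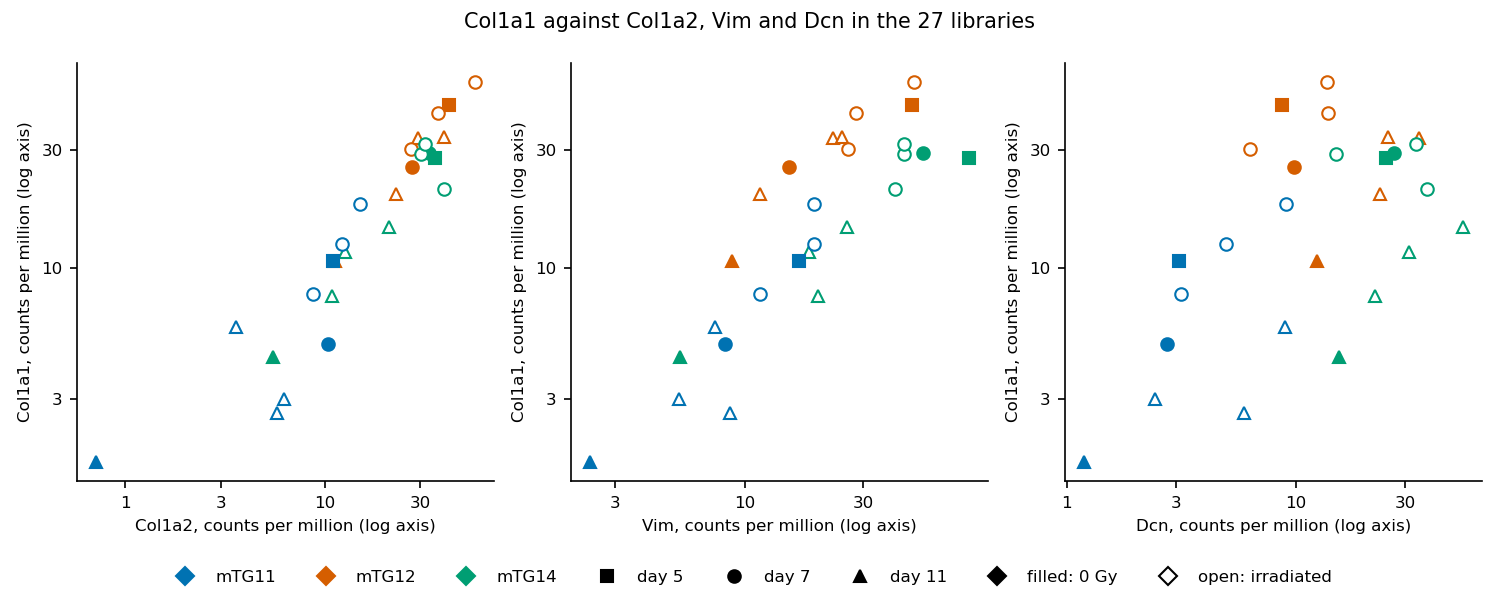
Col1a1 against Col1a2, Vim and Dcn in the 27 libraries, in CPM on log axes. Colour gives the culture, shape the day, and filled symbols the 0 Gy libraries. Col1a1 and Col1a2 rise together, with 0.455 to 2.33 Col1a1 counts per Col1a2 count, and the Dcn panel is broader, with 0.714 or more Dcn counts per Col1a1 count in each day 11 library.

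Without irradiation, most members fell between day 5 and day 11. In the fit without a culture term, 7 of 10 were lower at day 11 than at day 5, against 20.1% of 18442 genes tested that were lower. The 7 were Vim, Col1a1, Col1a2, Col3a1, Sparc, Lum and Pdgfrb. With the culture as a replicate block 7 were again lower, against 21.0% of genes. Within cultures, 29 of the 30 pairs of a member and a culture were lower at day 11, and 9 members were lower in all 3 cultures, as were 35.9% of genes. The 1 pair that was higher was Dcn in mTG12. The median fitted log2 difference was -2.20 over the members and 0.06 over all genes. Without the TMM scaling factors the log2 differences between day 11 and day 5 were lower by 0.15 at the median and the split of called genes went from 3921 higher and 3700 lower to 3049 higher and 4589 lower. The count of members stayed at 7.

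Vim, the intermediate filament gene, was at 16.5, 47.1 and 80.1 CPM in mTG11, mTG12 and mTG14 at day 5. At day 7 these values were 8.34, 15.1 and 52.2 CPM, and at day 11 they were 2.38, 8.85 and 5.50 CPM. All day 11 values lay below all day 5 values, and each culture was lower at each later day. The group means were 47.9 ± 31.8 CPM at day 5, 25.2 ± 23.6 at day 7 and 5.58 ± 3.23 at day 11 (SD, n = 3 each). Between day 5 and day 11 the log2 difference was -2.99 ± 0.74 (SE, adjusted p = 0.0065 by edgeR), or 7.93-fold lower, and with the culture as a block it was -2.88 ± 0.31 (adjusted p = 4.1e-06). Between day 5 and day 7 Vim was not called by edgeR without the block (log2 -0.77 ± 0.60, adjusted p = 0.42) and was called with it, at -0.81 ± 0.24 (adjusted p = 0.023). It was also called without the block when the day 7 library of mTG14 was left out (adjusted p = 0.042).

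The collagen genes were lower at day 11 than at day 5 in every culture. Col1a1 was at 10.7, 45.2 and 27.7 CPM at day 5, at 4.95, 25.4 and 29.1 CPM at day 7 and at 1.67, 10.7 and 4.40 CPM at day 11, in the order mTG11, mTG12 and mTG14. Its day 11 level in mTG12 reached the day 5 level of mTG11, so the groups overlapped. The day 11 value was 4.51-fold below the day 5 value (log2 -2.17 ± 0.70, adjusted p = 0.025 by edgeR). Col1a2 was at 11.0, 41.8 and 35.6 CPM at day 5, 10.4, 27.3 and 33.2 CPM at day 7 and 0.714, 11.3 and 5.50 CPM at day 11. It was 4.65-fold lower at day 11 than at day 5 (log2 -2.22 ± 0.65, adjusted p = 0.016) and 4.19-fold lower than at day 7 (log2 -2.07 ± 0.65, adjusted p = 0.041). The lowest Col1a2 value rested on 3 counts.

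Col3a1 had 5, 15 and 33 counts at day 5, 8, 21 and 31 at day 7, and 1, 8 and 2 at day 11. Only the mTG12 library stayed above the limit of 3 counts at day 11. The log2 difference was -2.40 ± 0.77 from day 5 (adjusted p = 0.025 by edgeR) and -2.42 ± 0.76 from day 7 (adjusted p = 0.040). None of the 3 collagen genes passed between day 5 and day 7, where their log2 differences lay between -0.31 and 0.02.

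Sparc, the most deeply counted member with 24382 counts in all, changed the least of the 7 that fell. It was at 202, 265 and 271 CPM at day 5, 168, 211 and 256 CPM at day 7, and 131, 175 and 137 CPM at day 11. The day 5 and day 11 values did not overlap. Its level at day 11 was 1.51-fold below day 5 (log2 -0.59 ± 0.17, adjusted p = 0.014 by edgeR) and 1.45-fold below day 7 (log2 -0.53 ± 0.17, adjusted p = 0.041).

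Of the proteoglycan genes Lum passed the test and Dcn did not, and the difference between them was not tested. Dcn was at 3.10, 8.74 and 24.8 CPM at day 5, 2.74, 9.81 and 26.8 CPM at day 7, and 1.19, 12.3 and 15.4 CPM at day 11, and the 3 groups overlapped throughout. Its log2 difference between day 11 and day 5 was -0.27 ± 0.85 (adjusted p = 0.83 by edgeR), and -0.15 ± 0.27 with the culture block (adjusted p = 0.69). Against Col1a1, Dcn gained in each culture, from 0.290, 0.193 and 0.897 Dcn counts per Col1a1 count at day 5 to 0.714, 1.15 and 3.50 at day 11. Lum had 6, 16 and 23 counts at day 5, 2, 12 and 36 at day 7 and 0, 3 and 3 at day 11. All 3 day 11 values of Lum were at or under the limit of 3 counts, so its fitted log2 difference from day 5, -3.01 ± 1.01 (adjusted p = 0.031 by edgeR), depends on the prior count of the fit.

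The receptor genes and Thy1 were at the edge of detection. Pdgfra had 5, 10 and 9 counts at day 5, 1, 5 and 8 at day 7 and 6, 2 and 1 at day 11, and the day 11 difference from day 5 did not pass (log2 -1.61 ± 0.68, adjusted p = 0.079 by edgeR). Pdgfrb had 3, 5 and 4 counts at day 5, 0, 2 and 2 at day 7 and 1, 1 and 0 at day 11, and passed between day 5 and day 11 with a log2 difference of -2.59 ± 0.90 (adjusted p = 0.036). Thy1 had 2, 6 and 2 counts at day 5, 1, 1 and 7 at day 7 and 2, 1 and 2 at day 11 (log2 -1.18 ± 0.91, adjusted p = 0.33). Over the 27 libraries these 3 genes had 102, 95 and 109 counts, and 16, 16 and 15 of the libraries held 3 counts or fewer.

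**Figure D3:**
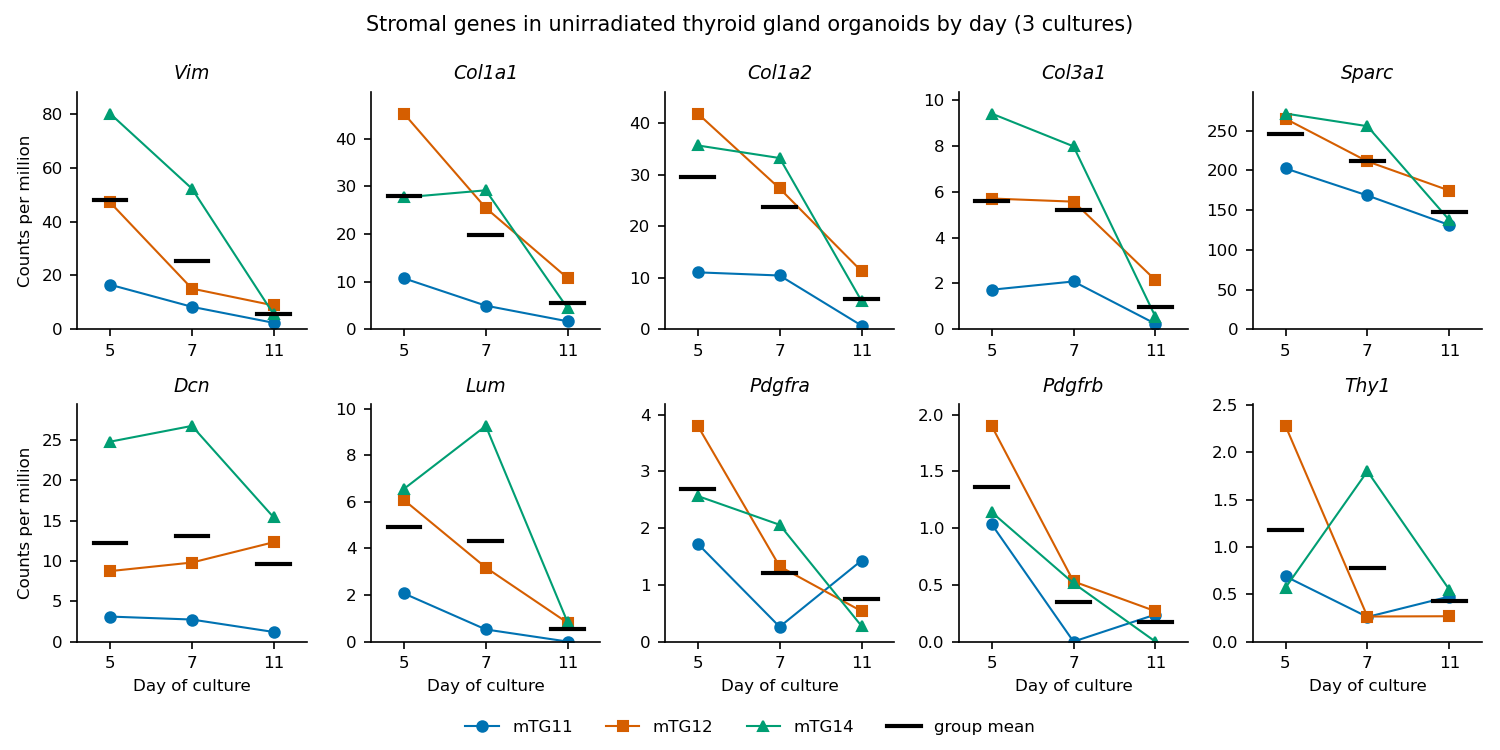
CPM of the 10 members in non-irradiated organoids at days 5, 7 and 11, on linear axes from 0, with 1 line per culture and black bars at the group means of 3 libraries. Vim runs from 16.5 to 80.1 CPM at day 5 to 2.38 to 8.85 CPM at day 11, and the Dcn lines stay in their order and overlap in range.

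More members were called between day 7 and day 11 than between day 5 and day 7. Between day 7 and day 11 the fit called 3 members lower, Col1a2, Col3a1 and Sparc, against 11.7% of genes, and with the culture block it called 6, Vim, Col1a1, Col1a2, Col3a1, Sparc and Lum, against 13.3% of genes. With the block the log2 difference was -2.08 ± 0.33 for Vim, -1.85 ± 0.28 for Col1a1, -2.09 ± 0.27 for Col1a2 and -2.88 ± 0.59 for Lum. Between day 5 and day 7 edgeR called 0 members, against 9.62% of genes that were lower. An unadjusted p under 0.05, in either direction, was held by 0 members and 6231 genes. DESeq2 called 0 members and 3089 genes. With the block edgeR called 1, Vim, against 11.0% of genes. The difference between these 2 steps was not tested.

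Single libraries carried weight in the fits without the block. The count of 7 members between day 5 and day 11 was 1 without the day 5 library of mTG14, 2 without the day 11 library of mTG11, 3 without the day 5 library of mTG12 and 3 without the day 11 library of mTG14. Vim was called in all 6 of these fits. The count of 3 between day 7 and day 11 was 6 without the day 7 library of mTG11 and 0 without the day 7 library of mTG12 or mTG14 or the day 11 library of mTG11 or mTG14. With the block, and with all libraries of 1 culture left out, 7, 6 and 5 members were called between day 5 and day 11 without mTG11, mTG12 and mTG14, 6, 7 and 3 between day 7 and day 11, and 0, 0 and 2 between day 5 and day 7. Over all genes and in either direction, these fits called 6360, 6678 and 5767 between day 5 and day 11. They called 2822, 3572 and 2668 between day 7 and day 11, and 3166, 3539 and 2461 between day 5 and day 7. Vim lost its call between day 5 and day 7 without mTG11 (adjusted p = 0.087 by edgeR) and without mTG12 (adjusted p = 0.062).

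Other matrix genes changed in both directions between day 5 and day 11. Of the 42 genes of the wider stromal matrix list 36 were tested, and 8 rose and 9 fell, where 21.3% of all genes rose and 20.1% fell, with a median log2 difference of -0.24. Lgals1, a galectin gene, fell from 102 to 10.3 CPM (log2 -3.16 ± 0.28, adjusted p = 3.4e-06 by edgeR) and S100a4 fell from 110 to 13.0 CPM (log2 -2.93 ± 0.11). Tenascin C, Tnc, rose from 42.0 to 124 CPM (log2 1.71 ± 0.17) and the metalloproteinase inhibitor gene Timp2 rose from 84.2 to 211 CPM (log2 1.47 ± 0.10).

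In the list of signalling genes, 9 of 20 tested genes rose and 3 fell, and in the basement membrane list 3 of 14 rose and 7 fell, beside the 21.3% and 20.1% of all genes. The matricellular genes Ccn1 and Ccn2, known targets of YAP and TGF-beta, rose by 3.09 ± 0.19 and 2.74 ± 0.35 on the log2 scale, and the ligand gene Tgfb2 rose by 2.27 ± 0.28. Tgfbi, whose protein binds collagen, fell from 127 to 39.1 CPM (log2 -1.56 ± 0.41, adjusted p = 0.0088 by edgeR). Of the 8 EMT genes 6 fell and 0 rose, with a median log2 difference of -2.43. Snai1, Twist1, Zeb1, Zeb2 and Cdh2 held 87.5, 67.1, 112, 74.2 and 92.5 counts over all 27 libraries. The differences of these EMT genes therefore rest on few counts. Of the laminin genes Lamb3 fell by 1.19 ± 0.14 on the log2 scale and Lama5 rose by 1.40 ± 0.18.

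Skeletal muscle transcripts fell beside the stromal ones. The summed level of 6 muscle markers was 76.0 to 225 CPM at day 5, 23.6 to 61.7 CPM at day 7 and 5.71 to 12.2 CPM at day 11, and between day 5 and day 11 5 of the 6 fell and 1 rose. Between day 5 and day 11, 20.1% of all genes tested fell and 21.3% rose, shares that apply to each count of this paragraph. None of the 6 muscle markers was at 0 in all libraries. The adipocyte gene Fabp4 fell from a mean of 33.3 CPM to 0, while Plin1 and Lep had no counts in any library. The 8 mural markers summed to 47.9 to 138 CPM at day 5, 22.0 to 57.9 CPM at day 7 and 33.4 to 131 CPM at day 11, with 2 of 7 tested genes that rose and 2 that fell. The 9 leukocyte markers summed to 5.52 to 19.4 CPM at day 5 and 38.3 to 65.5 CPM at day 11, and over all 27 libraries Cd68 held 3098 counts, Lyz2 570, the defining marker Ptprc 12 and Cd3e 0. The epithelial markers summed to 12598 to 14908 CPM at day 5 and 5404 to 6948 CPM at day 11, where 4 of 8 rose and 3 fell. The 5 markers of Schwann cells and neurons summed to 71.6 to 76.4 CPM at day 5 and 1.97 to 3.15 CPM at day 11, and 1 of 3 tested fell. The part of these cells in the fall of the members was not tested.

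At day 7, 2 days after irradiation, few members were called. At 2, 4 and 7 Gy against 0 Gy, edgeR called 0, 0 and 0 members, against 0.119%, 0.972% and 3.20% of 19346 genes that were higher. An unadjusted p under 0.05, in either direction, was held by 2, 2 and 1 members and by 1629, 2901 and 4112 of the 19346 genes. DESeq2 called 0, 1 and 0 members and 61, 415 and 1233 genes. With the block edgeR called 0, 1 and 1 members, against 0.424%, 2.84% and 5.34% of genes. The 3 doses share the same 0 Gy libraries.

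Sparc was the member called at 4 Gy. It was at 358, 424 and 272 CPM in mTG11, mTG12 and mTG14, against 168, 211 and 256 CPM at 0 Gy, and each culture was higher and the groups did not overlap (log2 0.67 ± 0.16 with the block, adjusted p = 0.023 by edgeR). Dcn was the member called at 7 Gy. It was at 9.02, 13.9 and 37.5 CPM against 2.74, 9.81 and 26.8 CPM, again higher in each culture, although the groups overlapped (log2 0.67 ± 0.19 with the block, adjusted p = 0.034). The mural markers summed to 51.0 to 91.6, 67.4 to 122 and 90.1 to 134 CPM at 2, 4 and 7 Gy, against 22.0 to 57.9 CPM at 0 Gy, and their part in these differences was not tested. When the libraries of 1 culture were left out, 0, 0 and 3 members were called at 4 Gy, and 0, 0 and 3 at 7 Gy, without mTG11, mTG12 and mTG14. The 3 were Vim, Col1a1 and Sparc at both doses. Over all genes and in either direction, these fits called 327, 650 and 563 at 4 Gy and 910, 1551 and 1187 at 7 Gy. Sparc at 4 Gy lost its call without mTG11 (adjusted p = 0.19 by edgeR) and mTG12 (adjusted p = 0.22), and Dcn at 7 Gy lost it in all 3 fits (adjusted p = 0.17, 0.075 and 0.11).

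At day 11, 6 days after irradiation, several members had higher values in irradiated than in non-irradiated organoids of the same culture, and the number called depended on whether the culture was a block. At 2 Gy 8 of 10 members were higher in all 3 cultures, as were 15.8% of 19901 genes tested, at 4 Gy 8 members, as were 16.5% of genes, and at 7 Gy 6 members, as were 23.0% of genes. Sparc was lower in 2 of 3 cultures at 2 Gy, and Pdgfra was lower in mTG11 at each dose. Without the culture block edgeR called 0, 0 and 0 members for 2, 4 and 7 Gy, against 0%, 0.00502% and 1.06% of genes that were higher. An unadjusted p under 0.05, in either direction, was held by 3, 3 and 1 members and by 1159, 1501 and 2961 of the 19901 genes. DESeq2 called 0, 0 and 1 members and 1, 37 and 417 genes. With the block edgeR called 4, 3 and 5 members higher, against 0.281%, 0.864% and 3.60% of genes. The median log2 difference over the members with the block was 1.70, 1.55 and 1.22, and -0.01, -0.01 and 0.01 over all genes. All 3 doses share the 0 Gy libraries of day 11, in which several members were at few counts.

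Vim was at 2.38, 8.85 and 5.50 CPM at 0 Gy in mTG11, mTG12 and mTG14, at 7.61, 22.6 and 25.8 CPM at 2 Gy, at 5.40, 24.7 and 18.2 CPM at 4 Gy and at 8.74, 11.5 and 19.7 CPM at 7 Gy. Each culture was higher at each dose, and the groups overlapped because mTG11 stayed low. With the block the log2 difference was 1.69 ± 0.30 at 2 Gy (adjusted p = 0.023 by edgeR), 1.49 ± 0.31 at 4 Gy (adjusted p = 0.028) and 1.23 ± 0.31 at 7 Gy (adjusted p = 0.027).

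Col1a1 was at 1.67, 10.7 and 4.40 CPM at 0 Gy, 5.82, 33.4 and 14.6 CPM at 2 Gy, 2.99, 33.5 and 11.6 CPM at 4 Gy and 2.62, 19.8 and 7.74 CPM at 7 Gy. The ratio to 0 Gy within a culture was largest at 2 Gy in mTG11 and mTG14. With the block its log2 difference was 1.70 ± 0.19 at 2 Gy (adjusted p = 0.00083 by edgeR), 1.45 ± 0.19 at 4 Gy (adjusted p = 0.0011) and 0.78 ± 0.20 at 7 Gy (adjusted p = 0.031). Col1a2 differed by 1.64 ± 0.30, 1.72 ± 0.30 and 1.21 ± 0.31 (adjusted p = 0.028, 0.010 and 0.029). Col3a1 had 1, 8 and 2 counts at 0 Gy, 7, 15 and 18 at 2 Gy, 1, 45 and 14 at 4 Gy and 3, 31 and 6 at 7 Gy, and did not pass at any dose (adjusted p = 0.21, 0.053 and 0.19 with the block).

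Dcn was at 1.19, 12.3 and 15.4 CPM at 0 Gy, 8.95, 34.5 and 53.8 CPM at 2 Gy, 2.43, 25.2 and 31.2 CPM at 4 Gy and 5.94, 23.4 and 22.1 CPM at 7 Gy. It was higher in each culture at each dose. With the block the log2 difference was 1.75 ± 0.23 at 2 Gy (adjusted p = 0.0026 by edgeR) and 0.87 ± 0.24 at 7 Gy (adjusted p = 0.042), and 0.98 ± 0.24 at 4 Gy did not pass (adjusted p = 0.068). Sparc followed another order. It was at 131, 175 and 137 CPM at 0 Gy, 130, 151 and 147 CPM at 2 Gy, 138, 225 and 177 CPM at 4 Gy and 201, 230 and 229 CPM at 7 Gy. All 7 Gy values of Sparc lay above all 0 Gy values (log2 0.55 ± 0.09 with the block, adjusted p = 0.0018), and its difference at 2 Gy was -0.07 ± 0.09.

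Lum, Pdgfrb and Thy1 had 0 to 3 counts in the 0 Gy libraries, 3 to 11 counts at 2 Gy, 1 to 13 at 4 Gy and 1 to 14 at 7 Gy, and Pdgfra had 1 to 8 counts in these 12 libraries. None of the 4 passed at any dose with or without the block. No pair of doses was compared with each other.

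**Figure D4:**
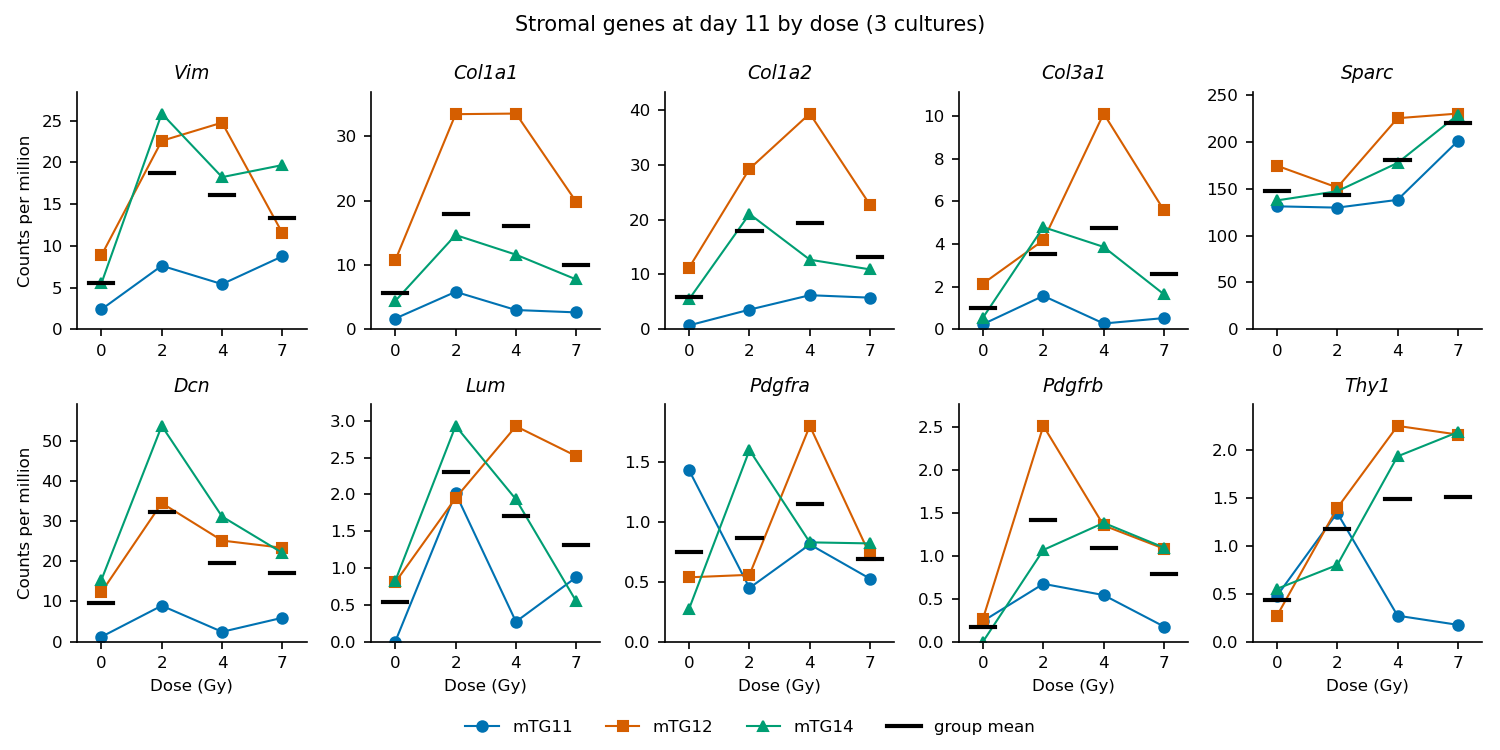
CPM of the 10 members at day 11 by dose, on linear axes from 0, with 1 line per culture and black bars at the group means of 3 libraries. Vim, Col1a1, Col1a2 and Dcn are lowest at 0 Gy in every culture, and Sparc is highest at 7 Gy in all 3 cultures, at 201 to 230 CPM.

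The calls at day 11 moved when a culture was left out. With the block and without the libraries of mTG11, mTG12 or mTG14, 3, 3 and 1 members were called at 2 Gy, 2, 1 and 2 at 4 Gy, and 1, 2 and 0 at 7 Gy. Over all genes and in either direction, 33, 85 and 9 were called at 2 Gy, 99, 108 and 88 at 4 Gy, and 461, 746 and 535 at 7 Gy. At 2 Gy Col1a1 was called in all 3 of these fits. Vim lost its call without mTG11 (adjusted p = 0.065 by edgeR) and without mTG14 (adjusted p = 0.37), Col1a2 without mTG12 (adjusted p = 0.13) and mTG14 (adjusted p = 0.25), and Dcn without mTG14 (adjusted p = 0.11). At 4 Gy Vim was called only without mTG12, Col1a1 only without mTG11 or mTG14, and Col1a2 only without mTG11 or mTG14. At 7 Gy Col1a1, Col1a2 and Dcn were called in none of the 3, Vim only without mTG12, and Sparc without mTG11 and without mTG12. The muscle markers were also higher in irradiated organoids. They summed to 9.73 to 24.9 CPM at 2 Gy, 13.1 to 30.4 CPM at 4 Gy and 18.5 to 47.3 CPM at 7 Gy. At 0 Gy they summed to 5.71 to 12.2 CPM. With the block 3 of the 5 tested were called higher at 7 Gy, as were 3.60% of all genes. The mural markers summed to 47.6 to 163, 47.4 to 168 and 56.0 to 295 CPM against 33.4 to 131 CPM. Their part in the differences of the members was not tested.

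In the wider stromal matrix list, 0, 2 and 7 of 38 tested genes were higher at 2, 4 and 7 Gy with the block. Over all genes 0.281%, 0.864% and 3.60% were higher at these doses. In that list 0, 0 and 1 were lower, where 2.91% of all genes were lower at 7 Gy. At 7 Gy Lgals1 was higher by 1.47 ± 0.16 on the log2 scale, S100a4 by 1.42 ± 0.15, Fstl1 by 1.06 ± 0.23 and the metalloproteinase inhibitor gene Timp1 by 0.93 ± 0.18. In the list of signalling genes, Tgfbi was higher by 0.67 ± 0.18 and the ligand gene Pdgfa was lower, at -0.34 ± 0.09, and of the EMT genes 1, 1 and 0 of 8 were called higher at 2, 4 and 7 Gy.

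**Figure D5:**
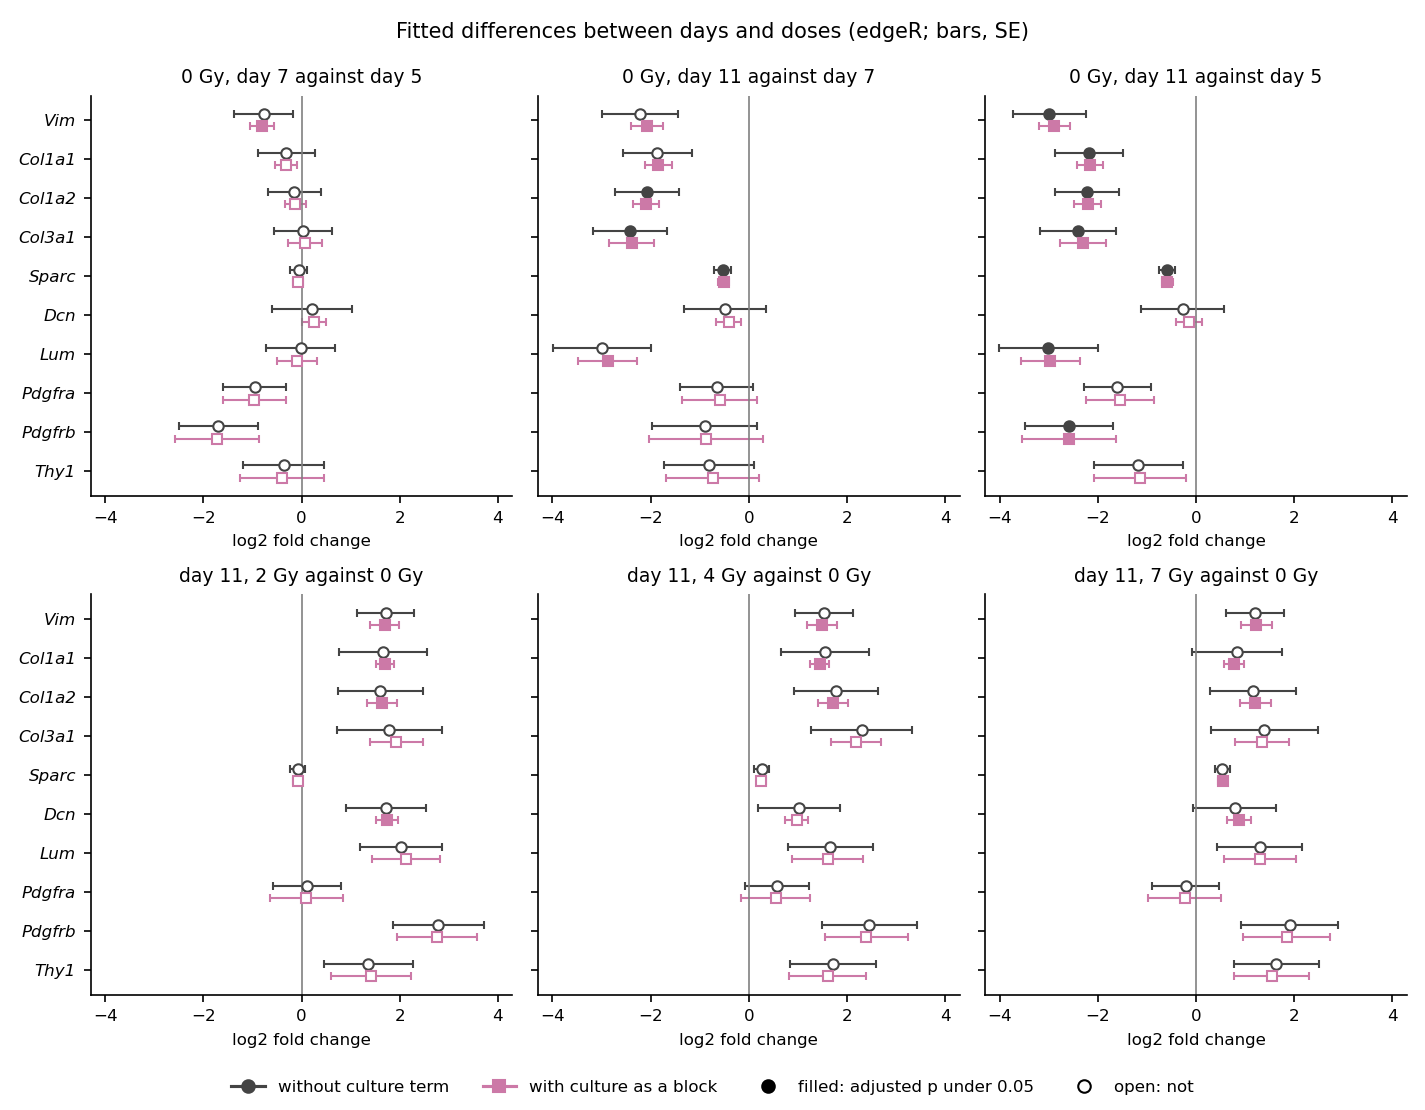
Fitted log2 differences of the 10 members with SE bars, between days at 0 Gy (top) and between doses at day 11 (bottom), without a culture term (circles) and with the culture as a block (squares). Filled symbols have an adjusted p under 0.05. Estimates nearly coincide between the fits and the bars are shorter with the block for the members with many counts, such as Col1a1 at 2 Gy with an SE of 0.90 without and 0.19 with it.

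Irradiated organoids were also compared between day 7 and day 11. Without the block 1 member was called lower at 2 Gy, against 9.69% of 21928 genes tested, and 1 at 4 Gy, against 9.44%. The 1 member was Sparc in both cases, at -1.07 ± 0.19 for 2 Gy (adjusted p = 0.00020 by edgeR) and -0.92 ± 0.18 for 4 Gy (adjusted p = 0.0010). At 7 Gy 0 members were called lower, against 6.15%. At that dose 0 members and 5627 genes had an unadjusted p under 0.05 in either direction, and DESeq2 called 0 members and 2442 genes. With the block the members called lower were Sparc at 2 Gy, against 11.4% of genes, Vim, Col1a1, Col1a2 and Sparc at 4 Gy, against 11.2%, and Vim, Col1a1 and Col1a2 at 7 Gy, against 8.25%.

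At 2 Gy the members went in both directions between day 7 and day 11. Dcn, Pdgfra, Pdgfrb and Thy1 were higher at day 11 in all 3 cultures, and Vim and Sparc were lower in all 3. Of the pairs of a member and a culture, 16 were higher and 14 lower. Pdgfra, Pdgfrb and Thy1 were near the limit of detection. The median log2 difference with the block was -0.33 over the members and 0.02 over all genes. Dcn was the member called higher. It was at 3.16, 6.32 and 15.0 CPM in mTG11, mTG12 and mTG14 at day 7 and at 8.95, 34.5 and 53.8 CPM at day 11, and with the block it rose by 2.05 ± 0.33 on the log2 scale (adjusted p = 3.7e-05 by edgeR), where 9.86% of genes were called higher. The log2 change between day 7 and day 11 was -2.22 for Vim at 0 Gy and -0.57, -1.16 and -1.17 at 2, 4 and 7 Gy, and for Col1a2 it was -2.07 and -0.35, -0.74 and -1.20. The test of the difference between 7 Gy and 0 Gy in this change called 0 members by edgeR, against 3.02% of genes. An unadjusted p under 0.05 was held by 0 members and 3091 genes, and DESeq2 called 0 members and 675 genes. For Vim that difference was 1.04 ± 0.93 (adjusted p = 0.69). For 2 and 4 Gy it was not tested.

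The genes whose level over the 27 libraries was most like that of the collagens were Spp1 (r = 0.92), which encodes osteopontin, Bgn (r = 0.90), which encodes the proteoglycan biglycan, Sema5a (r = 0.85), Upp1 (r = 0.85) and Clmp (r = 0.84). Relative to the group means, Bgn came first (r = 0.96), followed by the collagen chaperone gene Serpinh1 (r = 0.93), Insl6 (r = 0.92), Spp1 (r = 0.92) and Mxra8 (r = 0.92). Vim was most like Spp1 (r = 0.93), Bmp2 (r = 0.85) and the muscle actin gene Acta1 (r = 0.84) over all libraries. Relative to the group means it was most like the mesenchymal transcription factor gene Prrx1 (r = 0.91) and the stromelysin gene Mmp3 (r = 0.90). Sparc was most like Cpped1 (r = 0.90), Lgals1 (r = 0.90) and S100a6 (r = 0.88) over all libraries, and like Rpl30, a ribosomal protein gene (r = 0.87), relative to the group means. These are Pearson values over 27 libraries that share cultures, days and doses, for genes whose mean reached 5 CPM.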

How the data were processed

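RNA of mouse thyroid gland organoids was measured in 27 libraries by Smart3SEQ, a 3′ RNA-seq method. The authors deposited 1 table of estimated counts per gene, made before deposit, and the submitters' processing notes name GRCm39, STAR and edgeR without versions. Of the values above 0, 56.3% were whole within 1e-08, so the counts were rounded to whole numbers for the tests. Columns were placed in groups by the day and dose in their names, and 0 columns stayed unmapped.

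Genes with at least 10 counts over the libraries of a fit were tested by edgeR 4.0.16 (R 4.3.3; TMM factors, quasi-likelihood F test, Benjamini-Hochberg adjustment over all genes tested, threshold 0.05). The fits used 9 libraries for days at 0 Gy, 12 for doses at each day, 24 for irradiated days and 27 for cultures. The fits were tested on simulated data. Alternatives were DESeq2 1.42.0, other filters, no TMM factors, fewer groups, libraries left out and the culture as a replicate block. The culture names pair the libraries. Over 11593 genes, the deviations from group means of same-culture libraries in compared groups correlated above 0.1 in 36 of 36 pairs (median 0.286). Pairs of different cultures did so in 0 of 72. That second count is not separate evidence. The 3 deviations of a group sum to 0, so positive same-culture values push the others toward negative values. Replicates differed by more than sampling noise (lowest chi-square per degree of freedom 3.39 over 27 pairs).

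Named genes were the 10 members, up to 4 called genes with a mean of at least 10 CPM from each list by size of change, and the 5 genes most like the collagens, Vim or Sparc. Members and lists were chosen with earlier results of these data known. Single genes of marker lists quoted by their total counts, and Acta1, were chosen after their values were seen.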

Additional observations from a re-analysis of the deposited data

How the results depend on the processing

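With the replicate block, the count of members called was 1 between day 5 and day 7, 6 between day 7 and day 11 at 0 Gy, 1 at 4 Gy and 1 at 7 Gy on day 7, 4, 3 and 5 at 2, 4 and 7 Gy on day 11, and 2, 4 and 3 between day 7 and day 11 at 2, 4 and 7 Gy, and it changed no other count by over 1.5 times. Without a filter on low counts these counts were 1, 6, 2, 3 and 2 (day 7 doses), 5, 5 and 5 (day 11 doses) and 3, 5 and 6, and 1 for the difference between 7 Gy and 0 Gy. With at least 10 counts in 3 libraries, 5 were called between day 7 and day 11 at 0 Gy. DESeq2 called 1 at 4 Gy on day 7 and 1 at 7 Gy on day 11, and fits of only the groups compared called 2 between day 7 and day 11 at 2 Gy and at 7 Gy. With 1 library left out, 0 to 1 members were called between day 5 and day 7, 0 to 6 between day 7 and day 11, and 1 to 7 between day 5 and day 11. With all libraries of a culture left out, an alternative chosen after seeing the data, the counts are beside the results.

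Without single libraries, the log2 difference of Dcn ranged from -0.83 to 0.84 between day 5 and day 11, with 0.28 without mTG11 of day 11, and from -1.04 to 0.63 between day 7 and day 11, with 0.077 without mTG11 of day 11. Col1a1 ranged from -0.21 (without mTG12 of 7 Gy) to 1.70 at 7 Gy on day 11, and from -1.18 to 0.095 (without mTG11 of day 11) between day 7 and day 11 at 2 Gy. Dcn ranged from -0.23 (without mTG14 of 7 Gy) to 1.71 at 7 Gy on day 7. The cause was not tested, and none of these passed the threshold.

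Over all genes, the replicate block called 138, 1009 and 2193 genes at 2, 4 and 7 Gy on day 7 against 24, 315 and 1345 without it, 72, 238 and 1297 on day 11 against 0, 1 and 302, and 1156 against 663 for the difference between 7 Gy and 0 Gy. Without a filter on low counts these were 404, 1263, 2211, 267, 465, 1205 and 1234. DESeq2 called 61 at 2 Gy on day 7, and 1 and 37 at 2 and 4 Gy on day 11. Fits of only the groups compared called 7 at 2 Gy on day 7 and 0 at 4 Gy on day 11. Depth limits Pdgfra, Pdgfrb, Thy1 and the day 11 values of Lum and Col3a1, which rest on few counts.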
